A study of Homo sapiens with 9 samples.

Results

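In the established cell line 786-O, a human clear cell renal carcinoma, 902 genomic sites carried a p65 peak in every one of 4 p65 profiles and a TEAD peak as well. They were chosen by measured values: a site is a p65 peak of the control list, on chromosomes 1 to 22 or X, overlapped by at least 1 bp by a peak of the vehicle list, of each of the 2 treated p65 lists and of the TEAD list. The control list held 15432 peaks on these chromosomes, so the sites make up 5.84% of it (95% Wilson interval 5.49 to 6.23). The 5 lists hold 60345 peaks in all. Presence in the lists is what the choice used, and the peak strengths given first describe the sites and test nothing about them.

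The study profiled p65 and TEAD by chromatin immunoprecipitation and sequencing, with 1 library per condition. p65 was profiled in control cells (p65_Ctrl), in cells given an siRNA that the sample title names siTEAD4 and the treatment label siTEAD (p65_siTEAD4), in vehicle cells (p65_Veh) and in cells given XMU-MP-1 (p65_XMU). TEAD was profiled in XMU-MP-1 cells alone (TEAD_XMU), so its occupancy in control, vehicle or siTEAD4 cells is not known from these lists. The peak identifiers of the siTEAD4-labelled list carry the name p65_Vert, so its treatment rests on the sample label. All groups are the same cell line, fixed in 1% formaldehyde for 10 min. Not given in the sources used here are the dose and duration of the treatments, the sequence of the siRNA, the control siRNA and the TEAD protein that the antibody binds. No list measures TEAD after the siRNA, so the knockdown has no check here.

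p65 (RELA) is the transactivating subunit of the main NF-κB dimer, which IκB proteins hold in the cytoplasm until a stimulus releases it to κB sites near inflammatory and survival genes. TEAD proteins are the DNA-binding partners of YAP and TAZ and bind mostly at distal enhancers. The Hippo kinases MST1 and MST2 keep YAP out of the nucleus through LATS kinases, and XMU-MP-1 inhibits MST1 and MST2. Positions are given on hg19 as the peak lists give them. The gene table at hand is of another build (GRCh38), so genes, promoters and sequences at the sites were not analysed here.

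Each condition has 1 library, so differences between conditions stand without a replicate check or p-value. Fold enrichment is the authors' own value for the summit of a peak over the local background used for its list. Intervals on shares cover the counting of sites only and treat sites as independent. Relative depth, inferred from the background values in the lists, was 1.06 times the control for the siTEAD4-labelled list, 1.60 times the vehicle for XMU-MP-1, 0.547 times the control for the vehicle, and 0.780 times the vehicle for TEAD.

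Each condition of the rule held for a different share of the 15432 control peaks. A vehicle peak lay at 79.5% of them, a peak of the siTEAD4-labelled list at 11.2%, an XMU-MP-1 peak at 10.2% and a TEAD peak at 47.5%. Of the 12268 control peaks with a vehicle peak, 50% had a TEAD peak and 7.35% were among the 902. Of the 6135 sites with control, vehicle and TEAD peaks, 14.7% (13.8 to 15.6) were. A p65 peak stayed in all 4 p65 lists at 1171 sites, and 77% (74.5 to 79.3) of these had TEAD. The 902 sites account for 49.8% of the peaks in the siTEAD4-labelled list and 54.6% of those in the XMU-MP-1 list, but for 5.02% of the vehicle list and 3.83% of the TEAD list. In places neighbouring sites share a peak: the sites use 899 distinct vehicle peaks, 900 peaks of the siTEAD4-labelled list, 898 XMU-MP-1 peaks and 896 TEAD peaks.

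Just outside the rule lay 295 sites that lacked only the siTEAD4-labelled peak, with a median control fold of 7.74, and 352 that lacked only the XMU-MP-1 peak, with a median of 9.46. Another 6 lacked only the vehicle peak (median 5.99). The 269 sites that lacked only TEAD were the strongest near misses, with a median control fold of 16.1. A peak of the missing list lay within 200 bp at 1, 0, 1 and 13 of these sites, in the same order. Just inside, 32 of the 902 sites had a −log10 q under 3 in the siTEAD4-labelled list, 28 for TEAD, 11 under XMU-MP-1 and 2 in the vehicle list. No site entered by a sliver of overlap, the shortest being 53 bp with a TEAD peak.

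The sites were among the strong p65 peaks of untreated cells and among ordinary peaks of the treated lists. Their median fold was 13.2 in the control (interquartile range 9.17 to 18.6, lowest 2.85, highest 44.1) and 14.5 in the vehicle (10.1 to 20.4, lowest 2.92, highest 63.9). It was 5.95 in the siTEAD4-labelled list (4.65 to 7.80, lowest 2.4, highest 34.2) and 6.72 under XMU-MP-1 (5.22 to 8.80, lowest 2.62, highest 38.2). TEAD had a median fold of 9.99 (6.46 to 16.0, lowest 2.80, highest 75.2). Within its own list, the median site stood at the 91.4 percentile of fold in control cells, 93.3 with vehicle, 60.6 in the siTEAD4-labelled list, 61.5 under XMU-MP-1 and 78.0 for TEAD. The peaks were also narrower in the treated lists, with median lengths of 540 bp (control), 567.5 bp (vehicle), 333.5 bp (labelled siTEAD4) and 377 bp (XMU-MP-1), against 549 bp for TEAD.

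**Figure D1:**
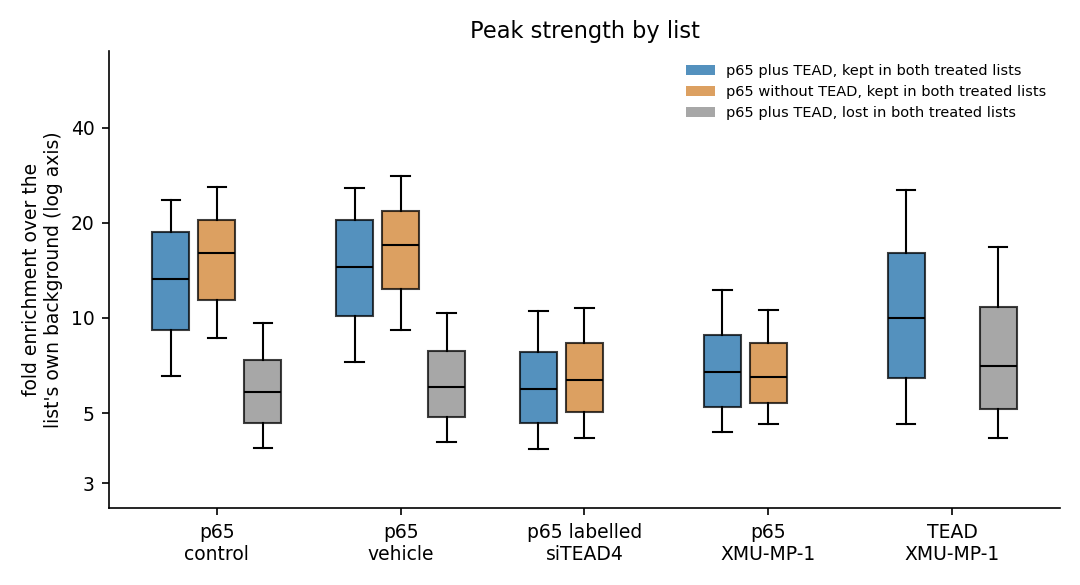
Fold enrichment on a log axis in each of the 5 lists for the 902 sites and for the comparison sets present in that list. Boxes span the 25th to 75th percentiles with a line at the median, and whiskers reach the 10th and 90th percentiles. The medians of the 902 sites are 13.2 and 14.5 in the untreated lists, 5.95 and 6.72 in the treated lists and 9.99 for TEAD.

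Single sites show how far the 5 profiles can coincide. In 23 of the 902 the peak belonged to the strongest 10% of every list. On chromosome 10 (99642107 to 99642820) the folds were 36.2 in control cells, 51.6 with vehicle, 23.8 in the siTEAD4-labelled list, 30.1 under XMU-MP-1 and 24.1 for TEAD. All 5 summits there lay within 19 bp of the control summit. On chromosome 1 (221612743 to 221613843) the folds were 28.9, 36.1, 21.2, 16.0 and 32.3 in the same order. The lowest of its percentiles over the 5 lists was 97.3, under XMU-MP-1. On chromosome 5 (14036026 to 14036513) the p65 folds stayed close, at 18.0, 22.5, 15.5 and 17.9, and TEAD had 22.05. At the other end, a second chromosome 5 site (14038442 to 14038874) was under the median of every list, the only one of the 902, with 4.08, 3.96, 5.18, 2.73 and 4.73. These strong and weak sites lie near each other on the same chromosome, so strength varied between close neighbours.

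The 5 sites with the highest control folds had TEAD folds of 5.43 to 18.1, at percentiles of 36.7 to 93.7 of the TEAD list. The highest control fold, 44.1, belonged to a site on chromosome 10 (104153691 to 104155673), which had 29.7 in the vehicle, 23.3 in the siTEAD4-labelled list, 14.2 under XMU-MP-1 and 6.27 for TEAD. Its TEAD summit lay 1173 bp from the control p65 summit, inside the same wide peak. The highest vehicle fold, 63.9, belonged to chromosome 1 (232980425 to 232980979), where the control had 30.5, the siTEAD4-labelled list 29.7, XMU-MP-1 30.6 and TEAD 4.63. The highest treated folds were both on chromosome 14 (35872863 to 35874367): 34.2 in the siTEAD4-labelled list and 38.2 under XMU-MP-1, beside 35.5 in the control, 44.3 in the vehicle and 11.7 for TEAD. The treatments could also part: on chromosome 19 (42625760 to 42626294) the folds were 37.1 in the control, 37.3 in the vehicle and 31.2 under XMU-MP-1 but 12.1 in the siTEAD4-labelled list, with a weak TEAD peak of 3.40.

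The reverse pattern, strong TEAD over weak untreated p65, was found as well. On chromosome 2 (96100299 to 96100531) TEAD had a fold of 38.6 while p65 had 3.65 in control cells, 5.52 with vehicle, 3.05 in the siTEAD4-labelled list and 4.34 under XMU-MP-1. On chromosome 22 (30602860 to 30603285) TEAD had 70.01 while p65 had 6.41, 5.99, 7.95 and 12.4 in the same order. There the treated p65 folds were above their untreated references, at percentiles of 83.0 (labelled siTEAD4) and 93.5 (XMU-MP-1) of their lists against 57.3 in the control. The highest TEAD fold, 75.2, was on chromosome 15 (63400138 to 63400765), where p65 was strong in the control (23.04) and the vehicle (24.9) and lower in the siTEAD4-labelled list (7.40) and under XMU-MP-1 (13.6). Over the 902 sites control and vehicle folds ran together, with a Spearman coefficient of 0.765. Control fold and TEAD fold ran weakly opposite, at −0.22. Over the 6135 sites that share control, vehicle and TEAD peaks, kept or not, the same coefficient was 0.024, so the negative value belongs to a set chosen to have all 5 peaks. The points share their libraries, and the coefficients are a description.

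The sites without TEAD that stayed in all 4 p65 lists (269) are the nearest comparison. They had higher untreated p65 folds, with medians of 16.1 (control) and 16.9 (vehicle cells). Among the strongest 10% of the control list stood 54.3% of the 902 sites and 68.0% of the 269 (difference −13.7 points, −20.2 to −7.25). For the vehicle list the shares were 61.9% and 73.6% (−11.7 points, −17.9 to −5.60). In the siTEAD4-labelled list the difference was −4.84 points (−10.0 to 0.32), an interval that includes 0. In the XMU-MP-1 list it turned to 4.45 points (0.12 to 8.77), with 14.9% of the 902 sites and 10.4% of the 269 in the strongest 10%. By these shares the set with TEAD was the weaker one in both untreated lists and, by a narrow margin, the stronger one under XMU-MP-1. Both sets were chosen by their peaks in these same lists, so the shares describe the sets and test nothing about them.

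Folds were lower in the treated list at nearly all sites, which was not particular to them. In the siTEAD4-labelled list the fold was below that of the control at 850 of the 902 sites (94.2%), against 94.3% of all control peaks that overlap a peak of that list. Under XMU-MP-1 it was below that of the vehicle at 829 (91.9%), against 91.3% of all such vehicle peaks. Between the untreated lists, the vehicle fold was the lower one at 37.4% of sites, against 44.4% of all common peaks. A fold depends on the background used for its list, so the fragments at each summit, solved from the deposited fold and p-value, were also set side by side at equal depth. The median site held 90 fragments in control cells, 52.5 with vehicle, 33 in the siTEAD4-labelled list, 38 under XMU-MP-1 and 30 for TEAD.

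At equal depth the summits held 0.366 times as many fragments in the siTEAD4-labelled list as in the control (median, interquartile range 0.295 to 0.470) and 0.494 times as many under XMU-MP-1 as in the vehicle (0.381 to 0.655). The vehicle held 1.08 times the control (0.979 to 1.19), so the untreated libraries differed little beside either treated one. The ratio was below 1 at 896 of 901 sites for the siTEAD4-labelled list, with 99.1% of all such peaks, and at 849 of 901 for XMU-MP-1 (94.2%, with 94.1% of all such peaks). For the vehicle over the control it was below 1 at 272 of 901 sites, with 41.8% of all such peaks. A peak had to remain callable to enter the set, so these ratios cover only sites still called in both treated lists. The size of the fall at other sites was not measured. Sites with control, vehicle and TEAD peaks but neither treated peak were weaker at the start, with a median control fold of 5.81 against 13.2. The ratios also carry the efficiency of each immunoprecipitation, whose part in them was not tested.

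**Figure D2:**
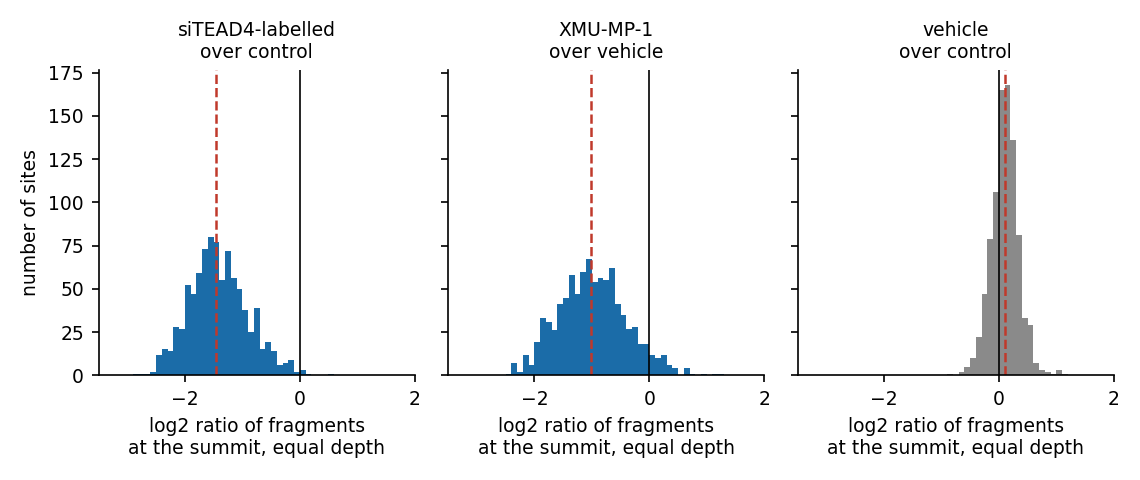
Log2 ratios of fragments at the summit at equal depth, in bins of 0.1, for the siTEAD4-labelled list over the control, XMU-MP-1 over the vehicle and the vehicle over the control at the 902 sites. The dashed line is the median and the solid line marks no difference. Both treated distributions lie left of it, with median ratios of 0.366 and 0.494, while the untreated one is centred near it at 1.08.

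The sites with TEAD retained a larger part of the fragments at their p65 summits, background included, than the sites without it. At least 0.5 of the vehicle fragments remained under XMU-MP-1 at 446 of 901 sites with TEAD (49.5%) and at 82 of 269 without (30.5%), a difference of 19.0 points (12.6 to 25.4). In the siTEAD4-labelled list at least 0.5 of the control fragments remained at 19.9% and 10.4% (9.46 points, 4.97 to 13.9). Control strength moves with this, since the median control folds of the 2 sets were 13.2 and 16.1. A site had to stay callable in both treated lists to enter either set, and the part of this in the differences was not tested. The local background was not subtracted from these fragments, and its median was higher at the sites with TEAD in all 4 p65 lists. It was 4.44 against 3.91 fragments in the siTEAD4-labelled list and 2.627 against 2.297 in the vehicle list. The part of the background in these differences was not tested. Among sites in the strongest 20% of the control list the XMU-MP-1 difference was 12.9 points (37.5% of 669 and 24.6% of 232, interval 6.31 to 19.6). For the siTEAD4-labelled list it was 3.37 points (−0.30 to 7.03), an interval that includes 0. Under XMU-MP-1 the fold itself was lower than in the vehicle at 91.9% of the sites with TEAD and 97.8% of those without (−5.86 points, −8.37 to −3.36), and among the strongest 20% of control peaks at 96.4% and 99.1% (−2.72 points, −4.56 to −0.88). For the siTEAD4-labelled list over the control these shares were 94.2% and 95.5% (−1.30 points, −4.20 to 1.59).

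Stronger TEAD peaks also went with more frequent p65 peaks in the treated lists. The 6135 sites with control, vehicle and TEAD peaks were cut into 5 equal classes of TEAD fold. In the weakest class, TEAD folds of 2.67 to 4.91, 9.78% were among the 902 sites. The next classes held 9.37%, 12.6% and 16.6%, and the strongest class, folds of 13.5 to 77.1, held 25.2%. The difference between the strongest and weakest TEAD classes was 15.4 points (12.46 to 18.3). A peak in the siTEAD4-labelled list was found at 31.1% and 14.4% of the sites of these 2 classes, and an XMU-MP-1 p65 peak at 33.3% and 12.1%. The median control folds of the 2 classes were close, 6.497 and 6.42. The TEAD list and the XMU-MP-1 p65 list come from cells under the same treatment, while the siTEAD4-labelled list does not.

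Within classes of control p65 fold the order held in each of the 5. Among the weakest control peaks 7.30% of strong TEAD sites and 0.758% of weak TEAD sites were kept in both treated lists. In the next classes the shares were 9.82% and 0.420%, then 8.40% and 2.19%, then 27.6% and 5.79%. Among the strongest control peaks they were 70.5% and 38.4%, a difference of 32.1 points (23.9 to 40.3). The local background in the control list, in pileup units that count each fragment as 0.587, was also somewhat higher at the strong TEAD sites. Its medians were 2.96 at the strong and 2.78 at the weak TEAD sites. From the weakest to the strongest class of control fold, these medians were 4.0 and 3.52, 3.0 and 2.59, 2.59 and 2.41, 2.48 and 2.38, and last 2.41 for both. The part of the background in these shares was not tested beyond that. With classes built from −log10 q in both untreated lists, the strongest class gave 75% and 42.5%, and the weakest 1.85% and 0%. The background medians in that strongest class were 3.0 and 2.74. In the weakest, 0 of 275 weak TEAD sites leaves an upper 95% bound of 1.38%.

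**Figure D3:**
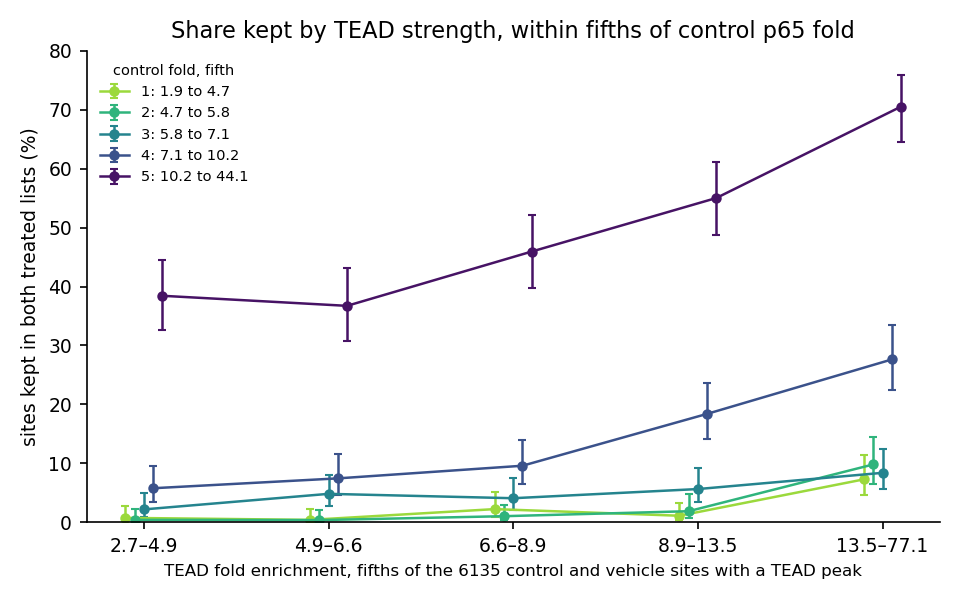
Share of sites kept in both treated lists (%) by class of TEAD fold on the horizontal axis, with 1 line for each class of control p65 fold; error bars are 95% Wilson intervals. In the class of the strongest control peaks the share goes from 38.4% at weak TEAD to 70.5% at strong TEAD, and the other classes lie lower and end higher than they start.

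Among the 902 sites themselves, those with the strongest TEAD had the largest remaining part of the p65 summit fragments, background included. The median equal-depth ratio under XMU-MP-1 over the vehicle was 0.436 in the weakest TEAD class and 0.601 in the strongest. For the siTEAD4-labelled list over the control it was 0.329 and 0.414. The vehicle over the control gave 1.06 and 1.08, with no such order. The strongest TEAD class had a lower median control fold, 11.4 against 15.9. Every site had to stay callable in both treated lists, and the part of this in the ratios was not tested. Among the 490 sites in the strongest 10% of the control list, the medians from the weakest to the strongest TEAD class still went from 0.403 to 0.509 under XMU-MP-1 and from 0.307 to 0.361 in the siTEAD4-labelled list. The median control folds of these end classes were 18.3 and 17.1. The rise was not steady. The class next to the weakest had the lowest medians, 0.362 and 0.297, as it did over all 902 sites (0.418 and 0.326).

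At 106 of the 902 sites (11.8%) at least 1 treated fold was as high as its untreated reference. By fold, the list labelled siTEAD4 reached the control at 52, XMU-MP-1 reached the vehicle at 73, and both did at 19. The 52 and the 73 were near the background. The siTEAD4-labelled fold was the lower one at 94.2% of the sites and 94.3% of all such control peaks. The XMU-MP-1 fold was the lower one at 91.9% of the sites and 91.3% of all such vehicle peaks. The shares over all peaks that match the 106 and the 19 were not computed. Fragments at equal depth gave other counts. They were below the control at 896 of 901 sites in the siTEAD4-labelled list, and below the vehicle at 849 of 901 under XMU-MP-1. At the chromosome 22 site named above, the equal-depth ratios were 0.962 (labelled siTEAD4) and 2.28 (XMU-MP-1). TEAD was among the strongest 10% of its list at 55 of these 106 (51.9%, 42.5 to 61.2) and at 202 of the other 796 (25.4%, 22.5 to 28.5), a difference of 26.5 points (16.5 to 36.5). Their control folds were lower, with a median of 6.99 against 14.2, and the part of this in the TEAD difference was not tested. One such site lay on chromosome X (77359274 to 77359824), with 9.64 in control cells, 18.2 with vehicle, 19.8 in the siTEAD4-labelled list, 21.7 under XMU-MP-1 and 25.5 for TEAD. Another, on chromosome 9 (114803883 to 114804557), had 12.4, 11.8, 9.49, 16.2 and 69.1 in the same order. There XMU-MP-1 exceeded both untreated folds while the siTEAD4-labelled list did not. Over all 902 sites TEAD was in the strongest 10% of its list at 257 (28.5%). The background is 15.9% of control peaks with a TEAD peak and 16.7% of those that also have a vehicle peak, and the 4586 control, vehicle and TEAD sites with neither treated peak gave 13.5% (14.95 points lower, 11.8 to 18.1).

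The summits of the p65 lists nearly coincided at these sites, and TEAD lay somewhat apart. Measured from the control summit, the median distance was 21 bp to the vehicle summit, 30.5 bp to that of the siTEAD4-labelled list, 30 bp to that of XMU-MP-1 and 56 bp to the TEAD summit. A vehicle summit lay within 50 bp at 80.8% of sites, against 69.9% of all control peaks with a vehicle peak. For the siTEAD4-labelled list the share was 71.0% (70.1% of all such peaks), for XMU-MP-1 69.3% (66.9%) and for TEAD 47.1% (45.8%). Within 200 bp the shares were 97.9% for the vehicle (97.2% of all such peaks), 96.0% for the siTEAD4-labelled list (96.4%) and 96.1% for XMU-MP-1 (96%). For TEAD it was 84.9%, below the 89% of all control peaks with TEAD.

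**Figure D4:**
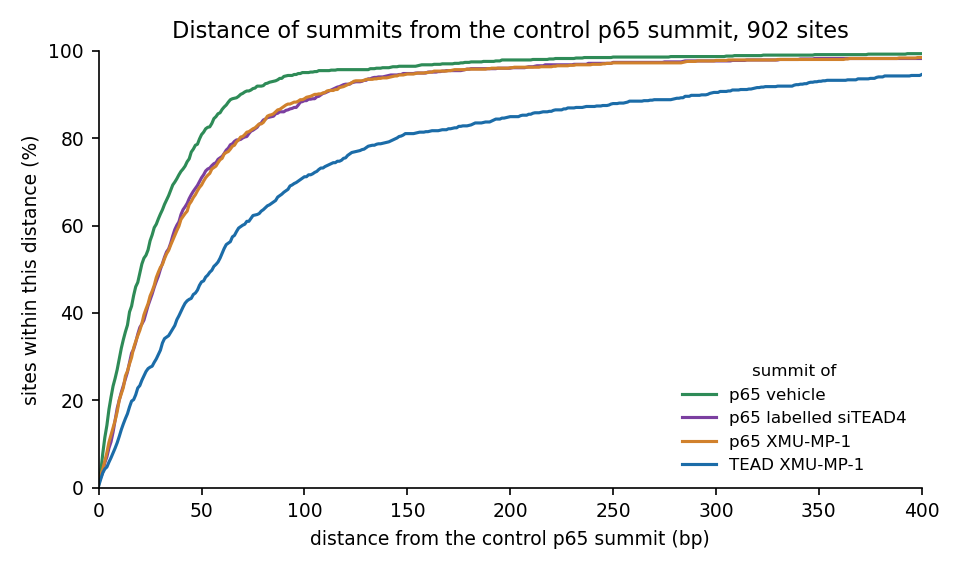
Cumulative share of the 902 sites (%) whose summit in each of the other 4 lists lies within a given distance (bp) of the control p65 summit. The vehicle curve is the steepest, with 80.8% within 50 bp, the 2 treated p65 curves run together at 71.0% and 69.3%, and TEAD reaches 47.1%.

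The treated p65 summits were also set against TEAD. The summit in the siTEAD4-labelled list was nearer to the TEAD summit than the control summit was at 403 of 892 sites where the 2 distances differed (45.2%, 41.9 to 48.5), and further from it at the other 489. The XMU-MP-1 summit was nearer than the vehicle summit at 461 of 894 (51.6%, 48.3 to 54.8), close to an even split. The vehicle summit was nearer than the control summit at 411 sites (46.5%, 43.2 to 49.8). All 4 p65 summits lay within 50 bp of the control summit at 435 sites (48.2%), and TEAD joined them at 237 (26.3%). At 97 sites the p65 summits lay that close together while TEAD peaked over 100 bp away, at 106 sites TEAD lay within 10 bp of the control summit, and at 136 it lay over 200 bp away. Of the 269 sites without TEAD, 60.2% had all 4 within 50 bp, and the siTEAD4-labelled summit lay within 50 bp at 79.6% (difference −8.60 points for the 902 sites, −14.3 to −2.94). Over all sites the difference was of like size for control and vehicle summits, −7.66 points (−12.3 to −3.06), and for vehicle and XMU-MP-1, −7.87 (−13.9 to −1.84). It was −4.32 (−10.4 to 1.75) for control and XMU-MP-1 and −5.92 (−12.2 to 0.39) for the 2 treated lists. Among the strongest 20% of control peaks the difference for control and siTEAD4-labelled summits was −6.52 points (−12.5 to −0.59). In the same peaks the difference for control and vehicle summits was −4.55 points (−9.14 to 0.05), for control and XMU-MP-1 −1.70 (−8.16 to 4.76), for vehicle and XMU-MP-1 −3.64 (−10.1 to 2.86) and for the 2 treated lists −1.70 (−8.47 to 5.07). These 4 intervals include 0.

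TEAD lay no closer to p65 at the kept sites than at the sites with control, vehicle and TEAD peaks and neither treated peak. Summits were within 50 bp at 47.1% and 46.4% of these sites (0.76 points, −2.80 to 4.32). Within 200 bp the kept sites had the smaller share, 84.9% against 89.8% (−4.89 points, −7.39 to −2.40). Peaks of the kept sites were longer, 540 bp against 320 bp at the median in the control list; the part of peak length in this was not tested. Among the strongest 20% of control peaks the difference was −2.16 points (−6.07 to 1.75), an interval that includes 0.

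These sites had a further peak nearby more often than all control peaks did. Another control p65 peak lay within 12500 bp of 64.3% of them, against 43.8% of all control peaks, 50.2% of the 269 sites without TEAD and 50.1% of the 4586 sites with neither treated peak. A further vehicle peak lay that near at 66.6% (47.7% of all control peaks), a further peak of the siTEAD4-labelled list at 26.8% (10.5%) and a further XMU-MP-1 peak at 25.6% (9.78%). For TEAD the share was 69.6% (49.2% of all control peaks). The TEAD share was 20.2 points above that of the 269 sites (13.5 to 26.9) and 11.3 points above that of the 4586 (7.99 to 14.6). The 902 were chosen to have a TEAD peak and the 269 to lack one, and the part of this choice in the 20.2 points was not tested. The 4586, also chosen to have a TEAD peak, stood at 58.3%. Among the strongest 20% of control peaks the TEAD shares were 69.1%, 47.4% and 49.1% in the same order, and the differences were thus no smaller among strong control peaks. The mean number of further control peaks was 1.31 at the 902 sites and 1.36 at the 269. It was 1.43 and 1.42 for vehicle peaks, 0.388 and 0.658 for the siTEAD4-labelled list, 0.394 and 0.625 for XMU-MP-1. For TEAD it was 1.56 and 1.35. By this measure the 902 sites were not the richer set in the control, siTEAD4-labelled and XMU-MP-1 lists. The means for the treated lists rest on a minority of sites. Of the 269, 16.4% had a further siTEAD4-labelled peak (at most 11) and 17.5% a further XMU-MP-1 peak (at most 10). Of the 902, 26.8% (at most 8) and 25.6% (at most 7) did.

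**Figure D5:**
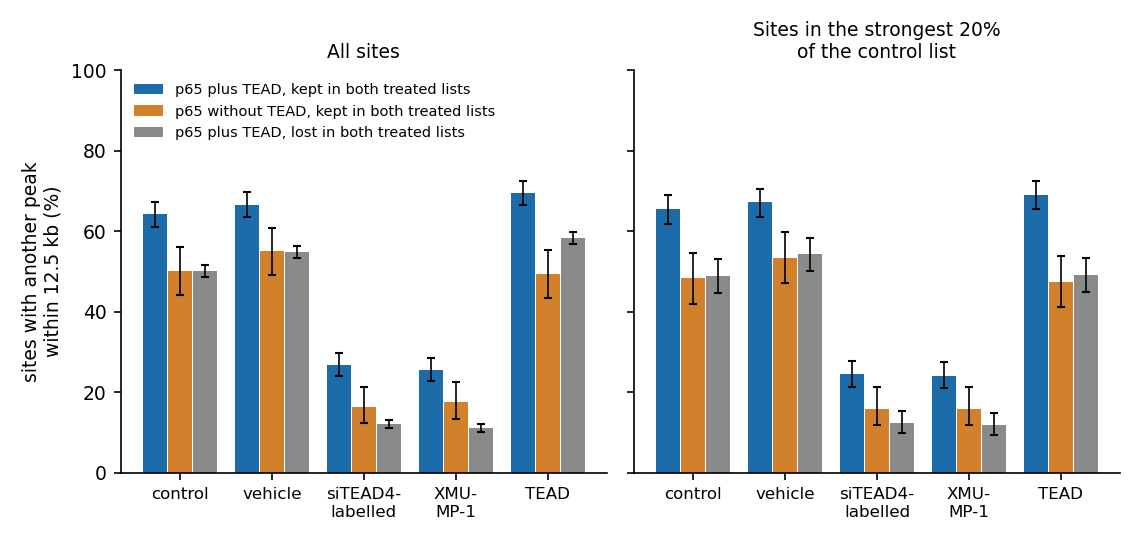
Share of sites (%) with another peak of each list within 12500 bp, for the 902 sites and the 2 comparison sets, with 95% Wilson intervals, over all control strengths and within the strongest 20% of the control list. The 902 sites are the highest set for TEAD in both panels, at 69.6% and 69.1%.

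Having a neighbour did not mean that the neighbour was kept. A control site absent from both treated lists lay within 12500 bp of 482 of the 902 sites (53.4%, against 39% of all control peaks). Summed over the sites, they had 1183 other control peaks in that distance, of which 760 were absent from both treated lists and 244 were sites of the set. At least 1 other site of the set lay that near at 176 (19.5%, against 6.39% of all control peaks), while 322 had no other control peak in reach. Joined at 12500 bp, the 902 fell into 726 single sites, 61 pairs, 9 groups of 3, 5 groups of 4 and 1 group of 7.

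The group of 7 spans 35002 bp of chromosome 5 (150439513 to 150474514), with 13 control, 13 vehicle, 9 siTEAD4-labelled, 8 XMU-MP-1 and 12 TEAD peaks. Its control folds ran from 9.10 to 21.6 and its vehicle folds from 10.4 to 23.2. In the siTEAD4-labelled list they ran from 2.71 to 7.27 and under XMU-MP-1 from 4.34 to 13.8. TEAD was modest throughout, from 3.48 to 11.1. The last 2 sites of the group share the same vehicle, siTEAD4-labelled and XMU-MP-1 peaks, so they count as 1 region in those lists and as 2 in the control list. Another 4 control sites in this stretch were absent from both treated lists. A group of 4 on chromosome 9 (114790515 to 114813288) was more uneven. Its first site (114790515 to 114791555) had a control fold of 27.2, 22.1 in the siTEAD4-labelled list, 16.2 under XMU-MP-1 and 11.2 for TEAD, whereas its last (114812806 to 114813288) had 14.2, 2.53, 4.44 and 28.2. A group of 4 on chromosome 15 (67399279 to 67420630) had control folds of 8.45 to 25.6 and TEAD folds of 10.2 to 22.1, and its strongest p65 site (67413346 to 67413844) had the weakest TEAD.

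The sites were spread over all the chromosomes considered. Chromosome 1 held the most, 86, and the share of control peaks that belonged to the set ran from 1.81% on chromosome 13 (3 of 166) to 7.86% on chromosome 5 (66 of 840).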

How the data were processed

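ChIP-seq of p65 and TEAD in 786-O cells has 9 libraries here, 4 of them inputs. Reads were handled with fastp, Bowtie2 2.4.5 and MACS2 on hg19, per the submitters' processing notes. Not given in the sources used here are the settings of MACS2, its version and the input paired with each list. For each peak of the 5 lists the authors deposited a fold enrichment (a ratio over the local background), −log10 p and q values, a score and a summit position. The lists give no read totals, so depth is inferred: fold and p were solved for the fragments at the summit and the background, to within 0.005 of −log10 p, and the 1st percentile of the background over the shortest peak gave relative depth. Fragment pileups were whole in 3 lists and scaled by 0.587 in the control and 0.783 in the XMU-MP-1 list. At 1 site each in these 2 lists the values were not solved, which leaves 901.

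Overlaps used at least 1 bp, taking the overlapping peak of highest fold where there was more than 1. Sites were cut into 5 equal classes of strength. Differences of shares have 95% normal-approximation intervals. The regions named are the 10 strong in every list, the 5 highest of each list, the 5 whose highest percentile over the lists was lowest, 3 far apart in p65 and TEAD in each direction, and the 3 densest groups; the single sites shown are drawn from these, and those on chromosome X and within groups were chosen after their values were seen. The sites, comparison sets and tests were chosen with earlier results of these data known. The alternatives tried were stricter q, other overlap rules, the vehicle as reference and the rule without the siTEAD4-labelled list. Code was tested on simulated data. Python 3.11.15, numpy 2.4.6, pandas 2.3.3 and scipy 1.17.1 were used.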

Additional observations from a re-analysis of the deposited data

How the results depend on the processing

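Of 67 recomputed values 14 moved. Only the 21 differences of shares among them could change direction, and 0 did. A count had moved when it differed by over 1.5 times, a share, median fold or distance when it left the 95% interval of the reported value. A difference of shares was held only to its sign and to an interval that excludes 0, so some differences below lie outside the interval of the reported one. Requiring a −log10 q of at least 5 in every list left 672 sites and raised the median folds to 15.3 (vehicle), 6.48 (labelled siTEAD4), 7.17 (XMU-MP-1) and 10.9 (TEAD). At a −log10 q of at least 10 there were 320 sites, 6.17% of the common control and vehicle peaks, with median folds of 16.0 (control), 17.6 (vehicle), 7.43 (labelled siTEAD4), 8.70 (XMU-MP-1) and 12.2 (TEAD). Requiring summits within 200 bp left 743 sites (6.22%), with TEAD 43 bp from the control summit at the median and within 50 bp at 55.6%, as that rule itself removes distant summits. An overlap of 50% gave 896 sites, the vehicle as reference 898, and the rule without the siTEAD4-labelled list 1197. The difference in kept sites between strong and weak TEAD ranged from 12.3 to 21.2 points over its alternatives, chosen after seeing the data, and that in TEAD neighbours from 15.3 to 21.7 points against the 269 sites without TEAD and from 7.26 to 20.03 against the 4586. No paired analysis was possible because only 1 library was made for every condition. The planned shares at gene starts and with sequence motifs were not run, since positions are on hg19 and no hg19 annotation or genome was used here. Counting error at single summits is set by median fragments of 90 (control), 52.5 (vehicle), 33 (labelled siTEAD4), 38 (XMU-MP-1) and 30 (TEAD), which reflect enrichment as well as depth.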
